A study of Homo sapiens with 7 samples.

Results

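Aminoacyl-tRNA synthetases are the enzymes that join each amino acid to its tRNA, and this report describes where Myc was found at 36 of their genes in HT29, a widely used line of human colon adenocarcinoma cells. The genes were taken from a fixed list of names, which was chosen with earlier results of these data known. Of these, 20 encode enzymes of the cytosol and 16, with symbols that end in 2, encode enzymes of the mitochondrion. They were set against 20037 protein-coding genes in all. A Myc peak was assigned to a gene when its summit, the base with the highest signal, lay in the RefSeq span of the gene or within 1 kb of it.

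Myc binding was mapped by CUT&RUN, in which an antibody guides a nuclease to the protein on chromatin and the fragments it releases are sequenced. By their titles, 3 libraries were made for Myc, 3 were IgG controls and 1 was an input. Every group, controls included, is labelled with 6 h of oleic acid, an unsaturated fatty acid, given in serum-free medium. The labels name the Myc antibody for the IgG libraries too, and the titles were followed here. The authors' list gives 1 value per peak for the Myc libraries together, so the spread between replicates is unknown. Cells without oleic acid were not analysed here, and no change caused by the fatty acid could be measured.

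Most synthetases recognise 1 amino acid and the tRNAs that carry its codons, and the charged tRNA is then delivered to the ribosome. Most amino acids have a pair of nuclear genes, one for the cytosolic enzyme and one for the enzyme that serves the separate translation system of the mitochondrion. GARS1 and KARS1 are among the exceptions, since each gives rise to both forms. Several cytosolic enzymes are held together in the multisynthetase complex, a large assembly built on scaffold proteins. Myc is a transcription factor that pairs with MAX, binds the E-box sequence and is known for its occupancy of genes of ribosome production and protein synthesis.

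All 36 synthetase genes had a Myc peak, 20 of 20 cytosolic (100%, Wilson 95% interval 83.9 to 100) and 16 of 16 mitochondrial (100%, 80.6 to 100). By the same rule 68.8% of all protein-coding genes had one. A total of 53 different peaks lay at the 36 genes, because HARS1 and HARS2 shared one. The strength of a peak is given here as the authors' fold enrichment at the summit, the Myc signal over the local control level. By pileup is meant how many Myc fragments cover the summit, and by control level how many would be expected there without enrichment. The 95% interval of a fold is an exact Poisson interval of the pileup, which was recovered from the list, and it covers counting error only.

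The strongest peak of each gene had a median fold of 9.51 over the 36 synthetases, against 7.83 over the 13793 protein-coding genes with a peak. A longer span can take in more peaks, and the median span was 34.7 kb for the synthetases and 24.1 kb for all protein-coding genes. With peaks within 1 kb of an annotated start alone, the medians were closer, 9.30 for the synthetases and 8.04 for all genes. The folds of the strongest peaks in or near the span ran from 3.96 at AARS2 to 31.0 at EARS2, a range of 7.82-fold. Of the 36 genes, 28 (77.8%) stood above the median of all genes with a peak. Counting error alone was enough to place 14 of the 36 on either side of that median, while 17 intervals lay wholly above it and 5 wholly below. A fold of 10 or more was reached at 17 synthetases (47.2%), at 22.1% of all protein-coding genes and at 32.1% of those with a peak. A fold of 5 or more was reached at 18 of 20 cytosolic and 14 of 16 mitochondrial genes, and at 53.9% of all, genes without a peak included. These shares are descriptions of 1 list, and no test was made over genes.

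The 2 classes had similar median strength. The cytosolic genes had a median fold of 9.31 (quartiles 8.25 and 14.1, range 4.25 to 25.0) and the mitochondrial genes 9.81 (7.89 and 13.3, range 3.96 to 31.0), and the 2 ranges overlapped over most of their length. The mitochondrial median was 1.05 times the cytosolic one. This order turned under some other choices, to 0.917 with a window of 2 kb, to 0.922 without the dual genes GARS1 and KARS1 and to 0.894 without genes whose strongest peak also lay near another gene, so no order of the classes is given. Median pileups were 76.0 fragments for the cytosolic and 77.5 for the mitochondrial genes, and control levels ran from 5.09 to 10.15 over all 36. The level 5.09 was also the lowest over all nuclear peaks and recurred at CARS1, NARS1, RARS1, WARS1, LARS2 and TARS2. At these genes it may be a shared minimum and not a level measured locally, which was not tested.

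**Figure D1:**
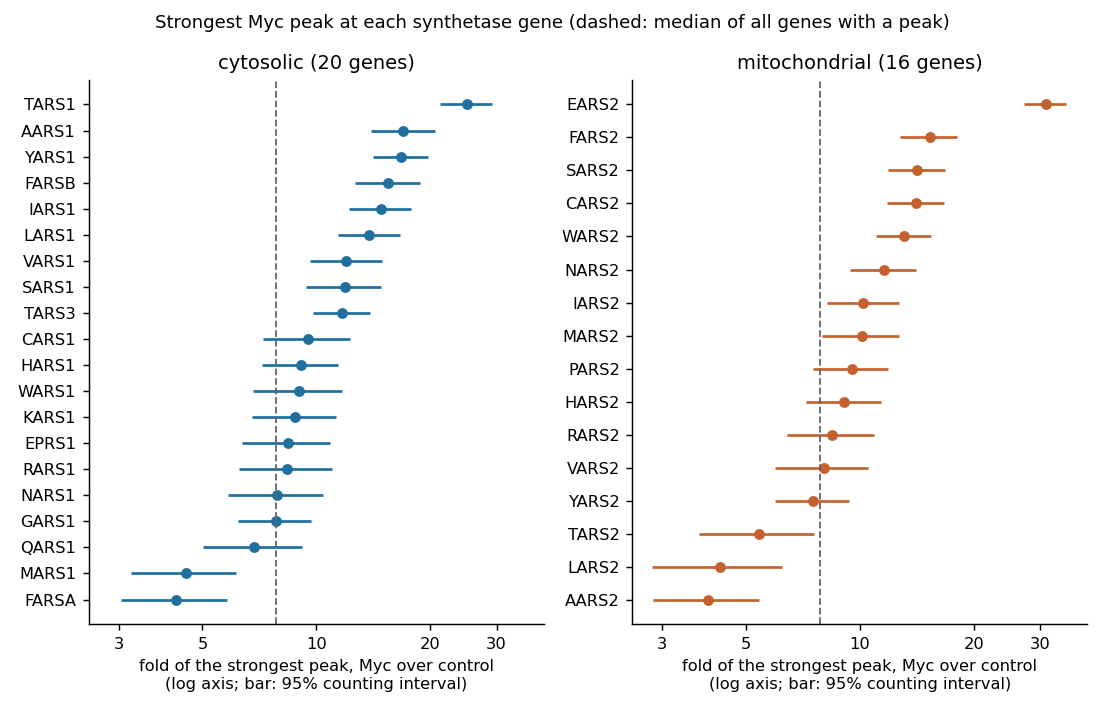
Fold of the strongest Myc peak at each of the 20 cytosolic and 16 mitochondrial synthetase genes, on a log axis, with 95% counting intervals as bars and the median of all genes with a peak, 7.83, as a dashed line. EARS2 and TARS1 stand at the top of their classes with 31.0 and 25.0, and 28 of the 36 points lie to the right of the line.

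Among the cytosolic enzymes, TARS1 had the strongest peak. TARS1 encodes threonyl-tRNA synthetase, and its summit at chr5:33441146 lay 181 bp inside the gene from the nearest annotated start. It had a fold of 25.0 (95% interval 21.3 to 29.1), where 165 fragments overlapped against a control level of 5.64. Of all genes with a peak, 99.0% had a lower fold. TARS3, a second threonyl enzyme gene of the cytosol, had 11.7 (9.83 to 13.9), and the intervals of these 2 genes did not overlap.

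AARS1, the gene of alanyl-tRNA synthetase, came next among the cytosolic genes. Its summit at chr16:70289379, 127 bp inside the gene, had a fold of 17.0 (14.0 to 20.6), from 106 fragments over 5.28. The same peak lay within 1 kb of the span of DDX19B, an RNA helicase gene. YARS1, for tyrosine, had 16.8 (14.1 to 19.8) at chr1:32817214, from 137 fragments over 7.21, in a peak that also lay near S100PBP. FARSB had 15.5 (12.7 to 18.8) at chr2:222656206, from 101 fragments over 5.57, with the summit 114 bp upstream of the start. The intervals of AARS1, YARS1 and FARSB overlapped one another, and none of them reached that of TARS1.

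The 2 subunits of 1 enzyme stood far apart. Cytosolic phenylalanyl-tRNA synthetase is built from the products of FARSA and FARSB, and FARSA had the lowest fold of the cytosolic genes, 4.25 (3.04 to 5.79). Its summit at chr19:12933606, 105 bp inside the gene, rested on 38 fragments over 8.19. The FARSA and FARSB intervals did not overlap.

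Members of the multisynthetase complex did not share 1 level. IARS1, for isoleucine, had a fold of 14.8 (12.2 to 17.8) and LARS1, for leucine, 13.8 (11.4 to 16.7). KARS1, for lysine, had 8.81, EPRS1, a fused enzyme for glutamate and proline, 8.40, and RARS1, for arginine, 8.37. The KARS1 peak also lay near TERF2IP. QARS1, for glutamine, had 6.85 (5.02 to 9.15) at chr3:49104626, from 44 fragments over 5.57, with the summit 131 bp inside the gene. MARS1, for methionine, had 4.52 (3.24 to 6.13) at chr12:57488137, from 39 fragments over 7.86, and its summit lay 69 bp inside the gene and also near ARHGAP9. The median over these 7 genes was 8.40, against 11.7 over the other 13 cytosolic genes, with folds from 4.52 to 14.8 in the complex and from 4.25 to 25.0 outside it. With peaks near an annotated start alone, the medians were closer, 8.39 over 6 genes of the complex and 9.31 over 10 others.

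The remaining cytosolic genes lay between these levels. VARS1, for valine, had a fold of 12.0, SARS1, for serine, 11.9, CARS1, for cysteine, 9.52, and HARS1, for histidine, 9.10. WARS1, for tryptophan, had 9.03, NARS1, for asparagine, 7.88, and GARS1, for glycine, 7.81. The WARS1 peak also lay near WDR25. The intervals of neighbours in this order overlapped.

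The strongest peak of all 36 genes was at a mitochondrial enzyme, EARS2, which charges glutamate in the mitochondrion and also starts the indirect route to glutaminyl-tRNA there. Its summit at chr16:23557230 lay 120 bp inside the gene and had a fold of 31.0 (27.2 to 35.2), from 233 fragments over a control level of 6.55. Of all genes with a peak, 99.8% had a lower fold. The peak also lay within 1 kb of UBFD1, so the list does not assign it to 1 of these genes. The EARS2 interval overlapped that of TARS1 and of no other synthetase.

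Next among the mitochondrial genes were FARS2, SARS2 and CARS2, for phenylalanine, serine and cysteine. FARS2 had a fold of 15.3 (12.8 to 18.1) at chr6:5261177, from 130 fragments over 7.57, with the summit 170 bp inside the gene from the nearest start. SARS2 had 14.2 (11.9 to 16.8) at chr19:38930611, from 134 fragments over 8.51, 152 bp inside the gene. CARS2 had 14.1 (11.8 to 16.7) at chr13:110712817, from 132 fragments over 8.43. All 3 of these peaks also lay near another gene, LYRM4 for FARS2, ING1 for CARS2 and MRPS12, a mitochondrial ribosomal protein gene, for SARS2. The CARS2 summit lay 6302 bp upstream of the nearest start in the sequence table, and a separate CARS2 peak 172 bp inside the gene had 10.4 (8.32 to 12.8).

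At the other end were AARS2, LARS2 and TARS2. AARS2, the mitochondrial alanyl enzyme, had a fold of 3.96 (2.83 to 5.40) at chr6:44313200, from 38 fragments over 8.84. LARS2, the leucyl enzyme, had 4.27 (2.82 to 6.22) at chr3:45418444, which lay 29868 bp inside the gene, and a peak 208 bp from its start had 3.35 (2.13 to 5.04). LARS2 was the only 1 of the 36 with no peak at a −log10 q of 10 or more, which 57.8% of all protein-coding genes had. TARS2, the threonyl enzyme, had 5.42 (3.76 to 7.58) at chr1:150487491, from 32 fragments over 5.09, with the summit 72 bp inside the gene. These 3 intervals lay below the median of 7.83 over all genes with a peak.

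The other mitochondrial genes had intermediate folds. WARS2, for tryptophan, had 13.1, NARS2, for asparagine, 11.6, IARS2, for isoleucine, 10.2, and MARS2, for methionine, 10.1. PARS2, for proline, had 9.51, RARS2, for arginine, 8.41, VARS2, for valine, 8.01, and YARS2, for tyrosine, 7.53. The RARS2 peak also lay near ORC3 and the VARS2 peak near GTF2H4. HARS2, for histidine, shared its peak with HARS1. The summit at chr5:140691168 had a fold of 9.10 (7.18 to 11.4), from 75 fragments over 7.35, and lay 202 bp inside HARS1 and 287 bp upstream of HARS2.

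Cytosolic and mitochondrial enzymes of the same amino acid were then set side by side, which holds the amino acid equal. There were 18 such pairs, of which the histidine pair had 1 peak in common and 17 could be compared. In 9 of the 17 the intervals overlapped. In 5 the cytosolic gene was higher and in 3 the mitochondrial gene was higher. TARS2, FARS2 and EPRS1 each enter more than 1 pair, so the pairs are not separate comparisons. Both threonine pairs among the 5 use the same TARS2 peak.

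The cytosolic gene was higher for alanine, where AARS1 had 4.30 times the fold of AARS2, and for threonine, where TARS1 had 4.62 times and TARS3 2.17 times the fold of TARS2. It was also higher for leucine, with LARS1 at 3.24 times LARS2, and for tyrosine, with YARS1 at 2.23 times YARS2. The mitochondrial gene was higher for glutamate, with EARS2 at 3.69 times EPRS1, for phenylalanine, with FARS2 at 3.60 times FARSA, and for methionine, with MARS2 at 2.24 times MARS1. FARSB and FARS2 did not differ beyond their intervals, at 15.5 and 15.3, nor did RARS1 and RARS2 at 8.37 and 8.41. With peaks near an annotated start alone, 12 pairs with a start for both genes could be compared, of which the cytosolic gene was higher in 1, threonine, and the mitochondrial gene in the same 3. The other 4 pairs with a higher cytosolic gene hold a gene with no entry in the table of starts (AARS2, LARS1, TARS3 and YARS1).

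**Figure D2:**
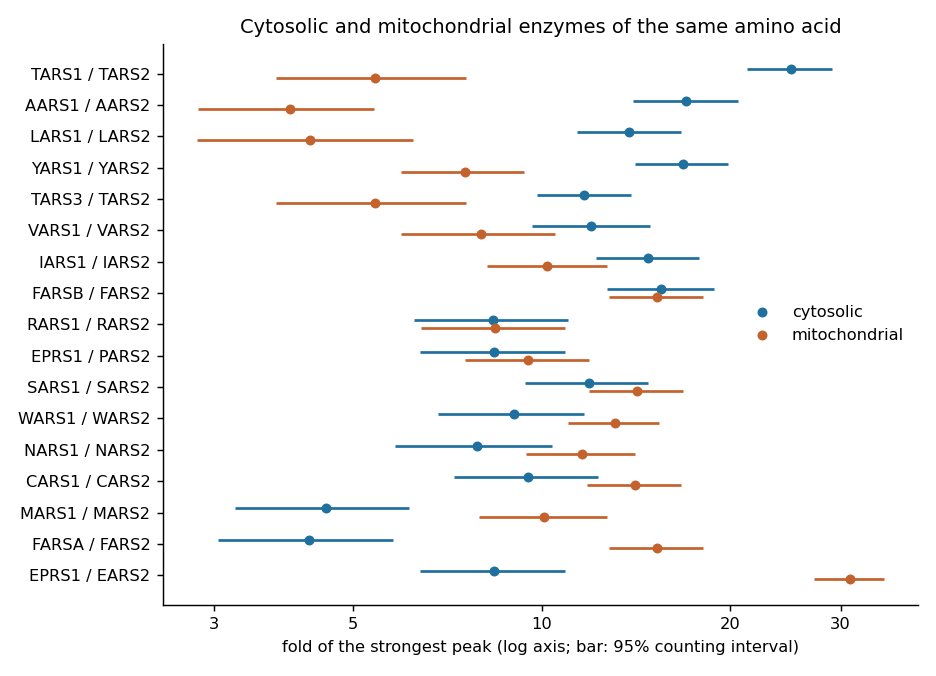
Fold of the strongest peak at the cytosolic and the mitochondrial gene of each of 17 pairs for the same amino acid, on a log axis with 95% counting intervals, ordered by the ratio of the folds. Bars are apart in 8 pairs, 5 with the cytosolic point to the right, led by TARS1 over TARS2, and 3 with the mitochondrial point to the right, led by EARS2 over EPRS1.

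Myc sat close to the starts of these genes. The RefSeq table of promoter sequences holds a start for 30 of the 36, 16 cytosolic and 14 mitochondrial. All 30 had a summit within 1 kb of a start, as did 60.1% of 15843 protein-coding genes with a start in the table. At the synthetases the strongest such summit was 69 to 347 bp from the nearest start, with a median of 151 bp, against 205 bp over the 9527 genes with a peak there. All 30 (100%) lay within 500 bp, against 87.2%. The summit was downstream of the start, inside the gene, at 22 of the 30 (73.3%) and at 55.9% of all genes with a peak there.

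None of the 30 summits near a start lay closer to it than that of MARS1, at 69 bp. The share of all genes with a summit closer than this was not counted. The summit shared by HARS1 and HARS2 counts for both genes, downstream of the HARS1 start and upstream of the HARS2 start. The 8 upstream summits, at FARSB, NARS2, YARS2, NARS1, KARS1, HARS2, CARS1 and IARS1, ran from 114 bp at FARSB to 317 bp at IARS1. The median fold near a start was 8.92 for the cytosolic and 10.2 for the mitochondrial genes, against 8.04 for all genes with a peak there. At the 6 genes with no start in the table the strongest summit lay 106 to 197 bp inside an end of the span.

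**Figure D3:**
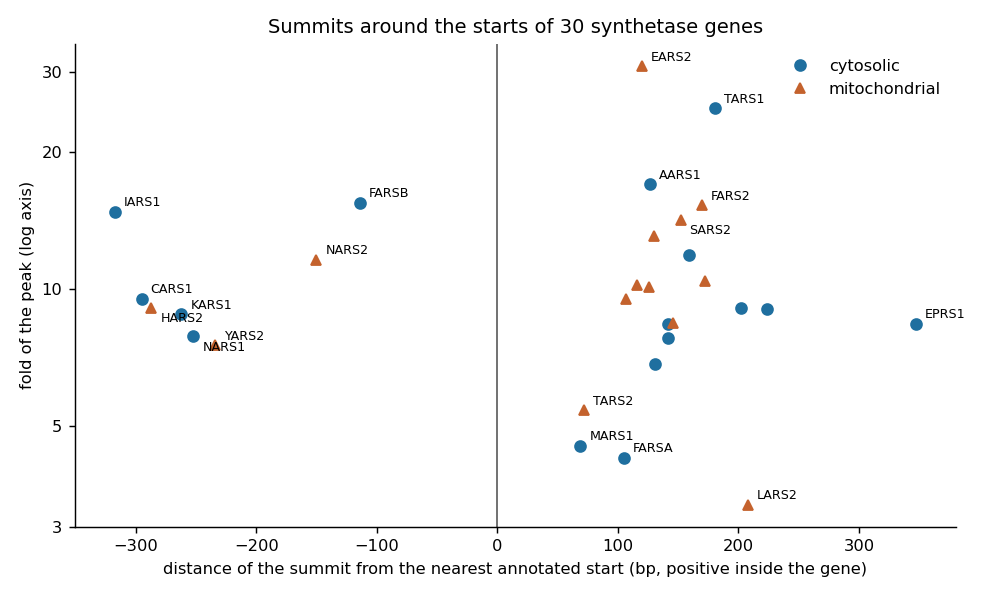
Distance of the strongest summit near a start from the nearest annotated start (bp, positive inside the gene) against its fold on a log axis, for the 16 cytosolic and 14 mitochondrial genes with a start in the table. Of the 30 points, 22 lie to the right of the start and 8 to the left, and EARS2, with a fold of 31.0, lies 120 bp inside its gene.

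Further peaks lay in or around 11 of the 36 genes (30.6%), while 34.4% of all protein-coding genes had more than 1. These 18 peaks, which are all those beyond the strongest of a gene, had folds from 2.95 to 10.4, with a median of 4.87. Of these, 11 were at cytosolic genes. They include the peaks near the starts of CARS2, with 10.4, and LARS2, with 3.35, because the strongest peaks of these genes lay elsewhere. CARS1 held 3 inside its span, with folds of 6.20, 5.80 and 5.13. VARS1 had a second strong one, 10.3 (7.97 to 13.2), beyond the other end of its span and near VWA7. The second peak of MARS1, with a fold of 4.43 (2.95 to 6.42), lay near DDIT3, the gene of a transcription factor of the stress response.

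The number of peaks per length rested in part on single genes. There were 3.79 summits per 100 kb of span at the cytosolic genes, 1.83 at the mitochondrial genes and 2.58 over all protein-coding genes. The span of FARS2 alone is 522 kb, and without it the mitochondrial genes had 2.84. Without CARS1 and VARS1, which had 4 peaks each, the cytosolic genes had 3.09. These counts took in summits within 1 kb of the span, while the length was that of the span alone. With summits inside the span only, the cytosolic genes had 0.0281 summits per kb and the mitochondrial genes 0.0159.

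The promoter sequences of the 30 genes, from 250 bases before to 50 after the start in RefSeq (GRCh38.p14), were searched for short motifs on both strands. A match describes the letters and is not evidence of a bound site. Most summits near a start lay outside this stretch, measured from the nearest start. A missing motif therefore says nothing of the sequence under those summits. The E-box CACGTG was present at 1 of 16 cytosolic genes (6.25%), 3 of 14 mitochondrial genes (21.4%) and 10.9% of all protein-coding genes with a start. The 4 sites are shown with their surroundings, 30 bases each, because this is the sequence that Myc and MAX recognise. The E-box is in capitals.

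EARS2, chr16:23557348-23557377, minus strand: cagggagaagccCACGTGtgctattccatc
CARS2, chr13:110706501-110706530, minus strand: tgctgggatgcaCACGTGcttcgctaacag
MARS2, chr2:197705346-197705375, plus strand: atgcgcctctcaCACGTGctgtcagaacgc
IARS1, chr9:92293866-92293895, minus strand: tggttcgttttcCACGTGgaggcgcaaaac

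In the 3 mitochondrial genes the E-box began 3 to 15 bases before a start, at 3 in CARS2, 11 in MARS2 and 15 in EARS2, whereas in IARS1 it began 186 bases before it. The strongest start summit lay 133 bp from the E-box in EARS2, 134 bp in MARS2, 173 bp in CARS2 and 133 bp in IARS1. EARS2 holds the highest fold of the 36, 31.0, and the other 3 have 14.8 at IARS1, 10.4 at the CARS2 start and 10.1 at MARS2. TARS1, with the second highest fold, has no CACGTG in its windows and has CACGCG, a variant of the E-box. CACGCG was found at 3 cytosolic and 5 mitochondrial genes and in 18.1% of all. CATGTG was found at AARS1 and EARS2 and in 11.5% of all.

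Any of the 3 forms was present at 13 of the 30 genes, 5 cytosolic and 8 mitochondrial, and at 34.6% of all protein-coding genes with a start. The median fold near the start was 10.4 at these 13 and 8.41 at the other 17. Over all genes with a peak near a start the same split gave 8.49 and 7.83.

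The motif that set the classes furthest apart was the core of the element bound by ATF4, the transcription factor that raises amino acid genes under stress. TGATGNAA was present at 7 of 16 cytosolic genes (43.8%), 1 of 14 mitochondrial genes (7.14%) and 3.60% of all protein-coding genes with a start. The sites are shown because 6 of the 7 cytosolic ones have the same 8 letters, read as TTGCATCA or, at NARS1, on the other strand as TGATGCAA. The core is in capitals.

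AARS1, chr16:70289675-70289704, minus strand: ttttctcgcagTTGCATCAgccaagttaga
CARS1, chr11:3057407-3057436, minus strand: cggggcggcggTTGCATCAgattctaggaa
IARS1, chr9:92293692-92293721, minus strand: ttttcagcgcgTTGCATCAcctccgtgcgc
MARS1, chr12:57488053-57488082, plus strand: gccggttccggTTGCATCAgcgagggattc
TARS1, chr5:33440956-33440985, plus strand: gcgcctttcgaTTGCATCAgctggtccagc
NARS1, chr18:57621804-57621833, minus strand: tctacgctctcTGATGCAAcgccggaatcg
GARS1, chr7:30594834-30594863, plus strand: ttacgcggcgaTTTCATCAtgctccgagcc
YARS2, chr12:32756076-32756105, minus strand: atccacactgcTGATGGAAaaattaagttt

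At 6 of the 7 cytosolic genes the core began within 33 bases of a start, from 2 at CARS1 and TARS1 to 33 at GARS1, and at AARS1 it began 187 bases before it. At YARS2 it began 197 bases before the start. Myc summits near the start lay 69 bp from the core at MARS1 and 171 to 311 bp from it at the other 6 cytosolic genes. The cytosolic genes with the core had a median fold near the start of 9.52, and the 9 without it 8.81. The 7 include both TARS1, at 25.0, and MARS1, at 4.52.

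**Figure D4:**
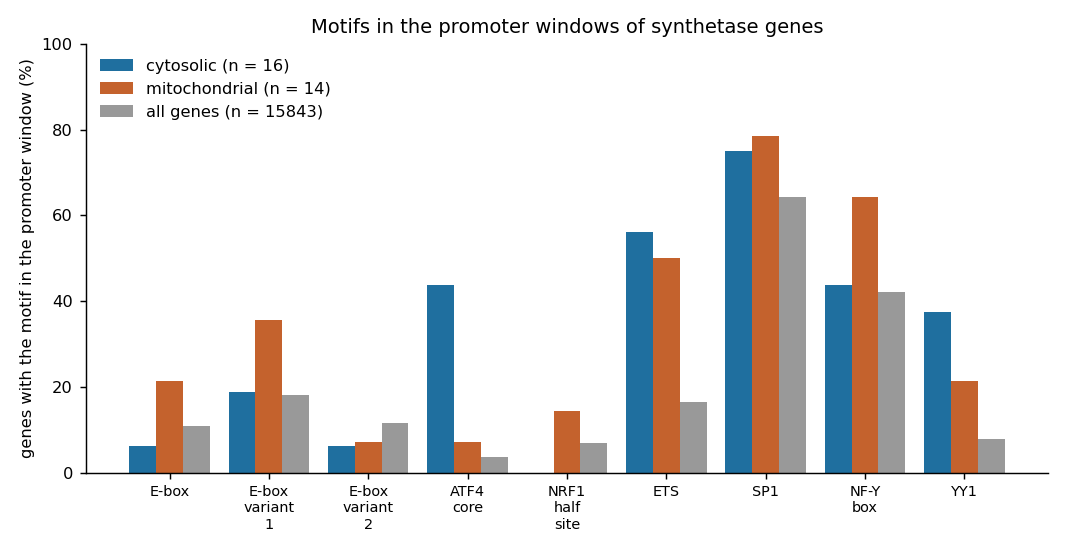
Share of genes (%) with each motif in the promoter window, for 16 cytosolic and 14 mitochondrial synthetase genes and for all 15843 protein-coding genes with a start in the table. The ATF4 core is found at 43.8% of the cytosolic, 7.14% of the mitochondrial and 3.60% of all genes; variants 1 and 2 of the E-box are CACGCG and CATGTG.

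Strongest summits fell inside the promoter window itself at FARSB among the cytosolic genes and at NARS2 and YARS2 among the mitochondrial genes, so the bases before their starts are given whole. The sequence between the starts of HARS1 and HARS2, read on the HARS2 strand, is given because these genes share a peak, and that of IARS1, chosen after its values were seen, because it holds both an E-box and an ATF4 core. Capitals mark the 3 forms of the E-box, the ATF4 core and the ETS motif CCGGAAG.

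FARSB, chr2:222656093-222656342, minus strand: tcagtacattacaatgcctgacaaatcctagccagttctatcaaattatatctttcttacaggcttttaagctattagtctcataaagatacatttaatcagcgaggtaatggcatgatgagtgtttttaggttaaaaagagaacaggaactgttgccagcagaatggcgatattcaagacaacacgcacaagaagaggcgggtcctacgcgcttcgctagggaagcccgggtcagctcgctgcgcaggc
NARS2, chr11:78574865-78575114, minus strand: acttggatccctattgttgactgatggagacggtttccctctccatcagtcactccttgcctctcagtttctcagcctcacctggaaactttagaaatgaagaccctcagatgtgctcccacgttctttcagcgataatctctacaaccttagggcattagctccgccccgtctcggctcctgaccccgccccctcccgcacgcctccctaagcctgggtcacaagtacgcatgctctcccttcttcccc
YARS2, chr12:32755898-32756147, minus strand: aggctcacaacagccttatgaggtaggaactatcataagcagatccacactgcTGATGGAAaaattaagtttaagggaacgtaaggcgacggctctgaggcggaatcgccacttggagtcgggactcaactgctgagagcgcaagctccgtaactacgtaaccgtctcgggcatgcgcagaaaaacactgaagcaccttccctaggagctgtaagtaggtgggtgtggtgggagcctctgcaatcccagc
HARS1 to HARS2, chr5:140691371-140691454, plus strand: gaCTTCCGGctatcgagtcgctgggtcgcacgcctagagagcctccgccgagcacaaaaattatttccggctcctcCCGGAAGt
IARS1, chr9:92293698-92293947, minus strand: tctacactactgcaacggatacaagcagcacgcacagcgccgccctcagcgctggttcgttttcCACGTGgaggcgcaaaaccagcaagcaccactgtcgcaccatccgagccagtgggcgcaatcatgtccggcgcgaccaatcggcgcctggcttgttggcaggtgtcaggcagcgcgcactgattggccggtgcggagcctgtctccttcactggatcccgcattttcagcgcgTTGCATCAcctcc

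FARSB and NARS2 have none of the marked motifs in these bases, although their summits, with folds of 15.5 and 11.6, lie there. The stretch between HARS1 and HARS2 is 84 bases long and has an ETS motif at either end, one on each strand. It holds neither the shared summit nor the CACGCG of HARS2, which lay 86 bp from that summit. ETS motifs were found at 9 of 16 cytosolic genes (56.2%), 7 of 14 mitochondrial genes (50.0%) and 16.5% of all protein-coding genes with a start. Within 100 bp of the start the counts were 8 cytosolic (50.0%) and 3 mitochondrial genes (21.4%), against 12.4% of all.

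Among the remaining motifs, the YY1 motif AAGATGG was present at 6 of 16 cytosolic genes (37.5%), 3 of 14 mitochondrial genes (21.4%) and 7.90% of all protein-coding genes with a start. The NRF1 motif CATGCGC was present at 0 of the cytosolic genes and at 2 mitochondrial genes, MARS2 and YARS2, and in 6.82% of all. The SP1 motif GGGCGG was present at 12 cytosolic and 11 mitochondrial genes and in 64.3% of all, and the NF-Y motif CCAAT at 7 and 9 genes and in 42.1% of all.

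Other genes of tRNA charging, of the delivery of charged tRNA and of the sensing of uncharged tRNA carried Myc peaks as well. All 16 of those listed had one, against 68.8% of all protein-coding genes, with a median fold of 11.7, and 13 of them stood above the median of 7.83. The 16 were chosen with earlier results of these data known, so these values only describe the list. Among the scaffold genes of the multisynthetase complex, AIMP2 had the highest fold of the 16, 33.2 (28.7 to 38.0), in a peak that also lay near PMS2, EEF1E1 had 21.9 (18.6 to 25.6) and AIMP1 12.8 (10.3 to 15.7), near TBCK. The AIMP2 and EEF1E1 intervals lay above those of all 7 synthetases of the complex. The control level at AIMP2 was 5.09, the possible shared minimum named above.

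The partners of mitochondrial charging ranged from 5.68 to 13.1. GATC, GATB and QRSL1 encode the amidotransferase that completes glutaminyl-tRNA in the mitochondrion and had 13.1, 7.97 and 6.95, with the GATC peak also near TRIAP1 and the QRSL1 peak near RTN4IP1, and MTFMT, which formylates the initiator methionyl-tRNA, had 5.68. The interval of EARS2, which acts before the amidotransferase, lay above all of these. Among genes of editing and selenocysteine charging, AARSD1, in a peak it shares with the readthrough gene PTGES3L-AARSD1, had 13.4, PSTK 11.0, SEPSECS 8.72 and DTD1 7.92. The elongation factors that deliver charged tRNA had 12.3 in the cytosol (EEF1A1) and 7.48 in the mitochondrion (TUFM, in a peak also near SH2B1). In the pathway that senses uncharged tRNA, GCN1 had 22.3 (18.7 to 26.4), ATF4 12.0 and the kinase gene EIF2AK4 11.5. The control level was also 5.09 at GCN1, ATF4 and PSTK.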

How the data were processed

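Per the submitters' processing notes, the software included MACS2 2.1.2, Picard 2.19.0, SAMtools 1.5 and BWA 0.7.15, and the build was hg38. Not given in the sources used here: which control the peak calling used, whether duplicates were removed and how replicates were joined. The authors deposited 1 peak list in the narrowPeak layout, with a fold enrichment (a ratio), a −log10 p, a −log10 q and an integer score for each peak; the score was not used. It has 47016 nuclear peaks, with a lowest −log10 q of 1.30.

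Pileups were recovered from the fold, taken as pileup plus 1 over control level plus 1, and the −log10 p, taken as a Poisson tail. A whole pileup gave back the p of all 47016 peaks within 0.001 on the −log10 scale, and the step was tested on 2000 simulated peaks, where it recovered 100% of pileups. Amplified fragments are not independent molecules, so intervals cover counting error only.

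Spans, starts and promoter sequences came from RefSeq, GRCh38.p14. All 36 synthetases had a span and 30 a start. AARS2, LARS1, TARS3, VARS1, VARS2 and YARS1 had none and are left out of counts at starts and of motif counts. Coordinates count from 1, and the closing section gives other windows, thresholds and choices of peak. A gene with several starts was measured from the nearest. A gene held a motif when any of its windows did. A base was counted from the start as 0, and the first base of a motif in the direction of the gene was used.

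The rule for full values took the 4 highest and 3 lowest genes of each class, any gene with no peak within 1 kb of a start in the table (there was none) and the 2 synthetases that share a peak with each other. The members and lists were chosen with earlier results of these data known. No test was made, because the list has no value per library. Python 3.11.15, numpy 2.4.6, pandas 2.3.3 and scipy 1.17.1 were used.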

Additional observations from a re-analysis of the deposited data

How the results depend on the processing

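The depth behind single peaks limits their order: pileups at the strongest peaks ran from 25 to 233 fragments, and the list says nothing of the spread between libraries. No paired analysis was possible because the list gives 1 value per peak for all Myc libraries, and for the same reason no replicate could be left out. With summits inside the span alone, 80.0% of the cytosolic genes kept a peak, as FARSB, IARS1, KARS1 and NARS1 have theirs outside it. Of the mitochondrial genes 87.5% kept one, without HARS2 and YARS2. The share of all protein-coding genes by this rule was not counted. A fold of 5 or more left out FARSA, MARS1, AARS2 and LARS2. The ratio of the class medians, mitochondrial over cytosolic, was 1.05 and turned to 0.917 with a window of 2 kb, where QARS1 took in a peak with a fold of 14.6, to 0.922 without KARS1 and GARS1 and to 0.894 without genes whose strongest peak is near another gene. Pairs with a higher cytosolic gene numbered 5, and 1 with peaks near a start alone, where fewer pairs could be compared. Mitochondrial genes had 0.0183 peaks per kb, and 0.0284 without FARS2; cytosolic genes had 0.0379, and 0.0309 without CARS1 and VARS1. Both choices were made after seeing the data. With motifs counted within 100 bp of the start in place of the whole window, the E-box went from 1 to 0 and CATGTG from 1 to 0 cytosolic genes, and CACGCG went from 5 to 3, the ATF4 core from 1 to 0 and the ETS motif from 7 to 3 mitochondrial genes. The other values stayed within their counting intervals or within 1.5 times.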

Other observations

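The synthetases fall into 2 structural classes by the fold of the catalytic domain, and Myc peaks were of like strength in both. The median fold of the strongest peak was 9.81 over 18 class I genes (range 4.27 to 31.0) and 9.51 over 17 class II genes (range 3.96 to 25.0). EPRS1, which joins a domain of each, was left out of this split. The highest of class I was EARS2 and the highest of class II was TARS1.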
